A study of Mus musculus with 38 samples.

Results

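Wild type melanocytes were compared with wild type hair follicle bulge cells from mouse back skin at postnatal day 30 (P30), when the follicles are in anagen, the growth phase of the hair cycle. The comparison used 4 of the 38 libraries of the series, 2 per cell type. Its members were the protein-coding genes listed, under the same Ensembl identifier, in both the melanocyte and the bulge table, and 12355 of 15585 such genes reached 1 FPKM, a measure of transcript abundance that corrects for gene length and sequencing depth, in at least 2 of the 4 libraries. The other 3230 genes were too low to be compared. The series as a whole was made to learn how clusters of nevus melanocytes, driven by a mutant Nras transgene, act on hair follicle stem cells, and the wild type libraries described here are its unmutated reference.

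Both groups were labelled wild type, taken from dorsal skin and aged 30 days, and neither carried the Nras transgene. The bulge cells came from K14-H2B-GFP mice, in which the keratin 14 promoter drives a nuclear green fluorescent protein in basal epithelium, and were sorted as GFP+ cells with surface CD34 and low P-cadherin. The melanocyte lineage was sorted as tdTomato+ cells from tamoxifen-treated Tyr-CreERT2;tdTomato mice, in which the tyrosinase promoter drives the recombinase. The tdTomato gate marks cells that carried an active tyrosinase promoter when tamoxifen was given, together with their descendants, and does not separate melanocytes from melanocyte stem cells. Reporter, treatment with tamoxifen, gate and table all differed between the cell types, so none of them can be told apart from cell type. The strain of the mice was not stated.

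Melanocytes arise from the neural crest and make melanin in melanosomes, organelles related to lysosomes, which they pass to keratinocytes of the growing hair. Their identity is set by MITF together with SOX10 and PAX3, and they depend on signals from surrounding cells through receptors such as KIT and EDNRB. Bulge cells are epithelial stem cells of the outer root sheath, which rest on a basement membrane, are joined by desmosomes and hold keratin 5 and keratin 14 filaments under the control of p63 (Trp63). Melanocyte stem cells sit among the bulge cells, while growing follicles also hold pigment-producing melanocytes at their base. Which of these made up the melanocyte libraries is not known, so the populations compared need not be neighbours.

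The 4 libraries listed 12217 to 12296 genes at 1 FPKM or more, and the multipliers that brought them to a common scale lay between 0.956 and 1.04. Across the compared genes, log2 levels correlated with Pearson's r of 0.980 between the melanocyte libraries, 0.987 between the bulge libraries and 0.654 to 0.657 between the cell types. These correlations are across genes, which are not independent replicates. Replicate libraries differed by a median ratio of 1.13 in melanocytes and 1.09 in bulge cells. The study's methods speak of biological triplicates, whereas the labels give 2 libraries for each group used here. The labels do not say whether replicate libraries came from different mice, so the spread between them may be technical.

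Because the cell types were deposited in separate tables and an exact two-sided test of 2 against 2 libraries cannot give a p below 0.333, no p-value is given between them. A gene was instead called higher in a cell type where its lowest library there was at least 8 times the highest library of the other cell type, after values under 0.1 FPKM were set to 0.1 and libraries were rescaled. Levels below are the deposited FPKM of replicates 1 and 2, and differences are log2 of the rescaled levels, melanocytes minus bulge cells, so that a positive value means higher in melanocytes. A gene that passed the filter through the higher group alone had to differ, so the counts below describe the genes compared and test nothing.

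By this rule 725 genes, 5.87% of those compared, were called higher in melanocytes, and 682 genes, 5.52%, were called higher in bulge cells. Group means of 7339 genes, 59.4%, lay within 2-fold of each other. Of the called genes, 133 were at 0.1 FPKM or under in both bulge libraries and 98 were so in both melanocyte libraries. The gaps were wider on the melanocyte side, where 70 called genes with measurable bulge levels lay at least 100-fold apart between the nearest libraries, against 9 genes on the bulge side. Counts of called members of a list are to be read against the shares of 5.87% and 5.52%. A weaker criterion, that both libraries of a cell type lie above both of the other, was met by 42.0% of the compared genes in the melanocyte direction and 42.8% in the bulge direction, and counts of genes higher in both libraries of a cell type are to be read against these shares. These are bulk samples, so fewer cells of a type and less RNA per cell cannot be told apart.

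**Figure D1:**
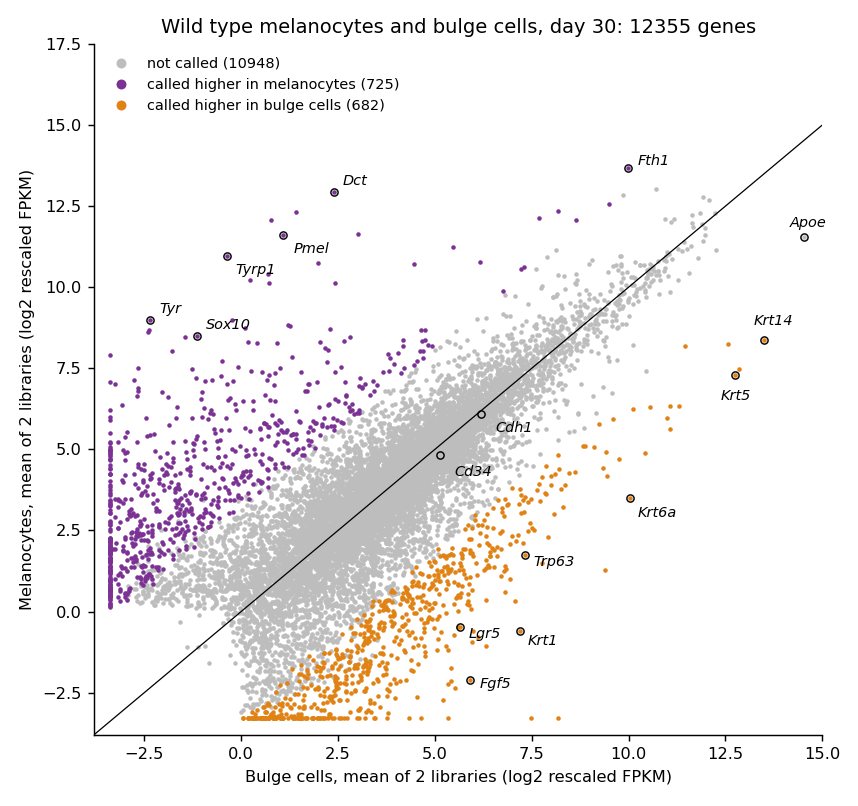
Mean level of each of the 12355 compared genes in bulge cells (x axis) and melanocytes (y axis), in log2 rescaled FPKM, with 2 libraries per mean and the diagonal marking equal levels. Pigment genes stand at the upper left with 725 genes called higher in melanocytes, and keratins stand at the lower right with 682 genes called higher in bulge cells.

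The 10 melanocyte markers Tyr, Tyrp1, Dct, Pmel, Mlana, Mitf, Sox10, Kit, Ednrb and Slc45a2 were all called higher in melanocytes. Of 10 bulge markers, Krt14, Krt5, Krt15, Lhx2, Lgr5, Trp63 and Col17a1 were called higher in bulge cells, while Cd34, Sox9 and Itga6 were higher in both bulge libraries by less than the 8-fold rule asks. Most of these markers were thus called on the side of their label, though the promoters of Krt14 and Tyr were part of the sorting design. In the longer list of bulge stem cell markers given below, 9 of 28 compared were called higher in bulge cells and 2 in melanocytes.

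The pigment enzymes Tyrp1 and Tyr gave the widest gaps among genes measurable in both cell types. Tyr, tyrosinase, the rate-limiting enzyme of melanin synthesis (chr7:87424771-87493512, minus strand of GRCm38), stood at 479 and 509 FPKM in the melanocyte libraries and 0.26 and 0.16 FPKM in the bulge libraries, a log2 difference of 11.34. Tyrp1, which acts after tyrosinase in the synthesis of brown-black eumelanin (chr4:80834123-80851719, plus strand), stood at 1891 and 2015 FPKM against 0.9 and 0.71 FPKM, a difference of 11.35. Dct, dopachrome tautomerase (chr14:118012790-118052244, minus strand), was the second most abundant of the called melanocyte transcripts at 7568 and 7556 FPKM, against 5.6 and 5.34 FPKM in bulge cells, a difference of 10.53. As called genes these enzymes could not overlap between the cell types, and replicate libraries of melanocytes lay close together. Tyr is also the gene whose promoter drove the recombinase used for sorting.

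The structural proteins of the melanosome followed the enzymes. Pmel, which forms the fibrils on which melanin is laid down, was at 3021 and 3079.6 FPKM in melanocytes and 2.27 and 2.14 FPKM in bulge cells. Mlana, a small melanosome membrane protein, was at 4369 and 3938 FPKM against 1.36 and 2.32 FPKM, and Gpnmb, a relative of Pmel, was at 1634 and 1699 FPKM against 4.33 and 3.95 FPKM. All 6 listed melanin enzymes and matrix proteins were called higher in melanocytes, with a median log2 difference of 10.91, beside a median of -0.02 over all genes compared.

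The start regions of these genes are shown because the short sequence TCATGTG, an E-box bound by factors of the MITF type, lies in several of them. Promoter windows from RefSeq on GRCm38.p6, running from 250 bases before to 50 bases after the annotated start, were searched on both strands. The 250 bases before the start are printed 5′ to 3′ on the strand of the gene, with every match in capitals. They lie at chr7:87493513-87493762 on the minus strand for Tyr, chr4:80833963-80834212 on the plus strand for Tyrp1, chr14:118052247-118052496 on the minus strand for Dct and chr8:123406832-123407081 on the plus strand for Mc1r.
Tyr: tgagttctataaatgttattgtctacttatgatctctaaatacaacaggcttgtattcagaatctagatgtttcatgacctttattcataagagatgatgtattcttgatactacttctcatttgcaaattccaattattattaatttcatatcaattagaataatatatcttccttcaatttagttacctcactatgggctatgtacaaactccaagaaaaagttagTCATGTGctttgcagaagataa
Tyrp1: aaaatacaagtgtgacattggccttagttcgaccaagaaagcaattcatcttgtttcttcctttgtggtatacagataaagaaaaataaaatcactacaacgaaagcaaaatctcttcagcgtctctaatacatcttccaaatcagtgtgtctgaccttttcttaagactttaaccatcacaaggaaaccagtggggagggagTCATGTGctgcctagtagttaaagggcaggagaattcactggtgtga
Dct: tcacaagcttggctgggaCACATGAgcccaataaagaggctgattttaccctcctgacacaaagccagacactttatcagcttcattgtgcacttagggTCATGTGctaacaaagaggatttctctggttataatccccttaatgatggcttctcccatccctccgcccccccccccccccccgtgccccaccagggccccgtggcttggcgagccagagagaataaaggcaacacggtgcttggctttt
Mc1r: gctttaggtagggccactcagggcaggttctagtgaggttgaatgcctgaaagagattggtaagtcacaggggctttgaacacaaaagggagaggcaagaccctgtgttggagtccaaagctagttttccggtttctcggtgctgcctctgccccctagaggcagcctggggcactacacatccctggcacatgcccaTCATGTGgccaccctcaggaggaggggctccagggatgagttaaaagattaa

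The match began 22 bases before the start in Tyr, 47 bases before it in Tyrp1 and 52 bases before it in Mc1r. Distances are from the RefSeq start. For Tyrp1 this start lies inside the gene span given above, which is from another annotation, so the end of its printed window falls within that span. Dct held 2 matches, at 151 bases before the start and, on the opposite strand and so printed as its reverse complement, at 232 bases before it. Slc24a5 and Trpm1 each held a match as well, at 13 and 142 bases before the start. Of the called genes of the enzyme, matrix, channel and receptor groups of the melanosome, 9 had a promoter in the table, and 6 of these, 66.7%, held TCATGTG, while Gpnmb, Oca2 and Slc24a4 did not.

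Among all 27025 genes with a promoter in the table, 4.31% held TCATGTG in a window of the same length. The share was 2.73% of the compared genes, 6.53% of the genes called higher in melanocytes (34 of 521) and 3.88% of those called higher in bulge cells (18 of 464). The related E-box TCACGTG was in 7.03% of the compared genes, in 3.45% of the melanocyte calls and in 3.66% of the bulge calls, and in none of the 9 pigment genes. GGAATG, a sequence bound by TEAD factors, was in 17.3% of melanocyte calls and 17.0% of bulge calls. TGANTCA, bound by AP-1 factors, was in 12.9% and 13.1%. A match describes letters in a window and is not evidence of binding, and the shares were not tested.

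Transport proteins of the melanosome membrane were also found on the melanocyte side. Of 10 genes for melanosome channels, transporters and receptors, all of which could be compared, 7 were called higher in melanocytes and none in bulge cells. Slc24a5, a potassium-dependent sodium and calcium exchanger needed for normal pigmentation, was at 484 and 504 FPKM in melanocytes and 0.75 and 1.05 FPKM in bulge cells. Trpm1, a cation channel, was at 303 and 312 FPKM against 1.9 and 0.72 FPKM, and Oca2, which helps set melanosome pH, was at 38.6 and 44.3 FPKM against 0.22 and 0.17 FPKM. Slc45a2, a melanosome transporter, was at 222 and 240.4 FPKM in melanocytes, and Gpr143, a receptor of the melanosome membrane, was at 71.7 and 71.8 FPKM there, and each was listed at 0.1 FPKM in both day 30 bulge libraries. Atp7a, the copper transporter that loads tyrosinase, was not called, at 7.49 and 6.56 FPKM against 5.04 and 5.44 FPKM.

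Genes for building and moving melanosomes were far less divided between the cell types than the pigment genes. Of 24 listed genes, 23 were compared and 3 were called higher in melanocytes, beside 5.87% of all genes. They were Rab27a, Mlph and Dct, the last of which is a pigment enzyme that had entered this list by mistake. Rab27a, the small GTPase that ties melanosomes to the motor complex, was at 51.6 and 58.02 FPKM in melanocytes and 1.8 and 2.02 FPKM in bulge cells, a difference of 4.94. Mlph, its linker melanophilin, was at 60.4 and 61.05 FPKM against 0.78 and 0.24 FPKM, whereas Myo5a, the myosin of the same complex, was not called at 115 and 124 FPKM against 37.8 and 38.1 FPKM. The median difference of the list was 0.93, and 19 of its genes, Dct included, were higher in both melanocyte libraries than in both bulge libraries, beside 42.0% of all genes.

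**Figure D2:**
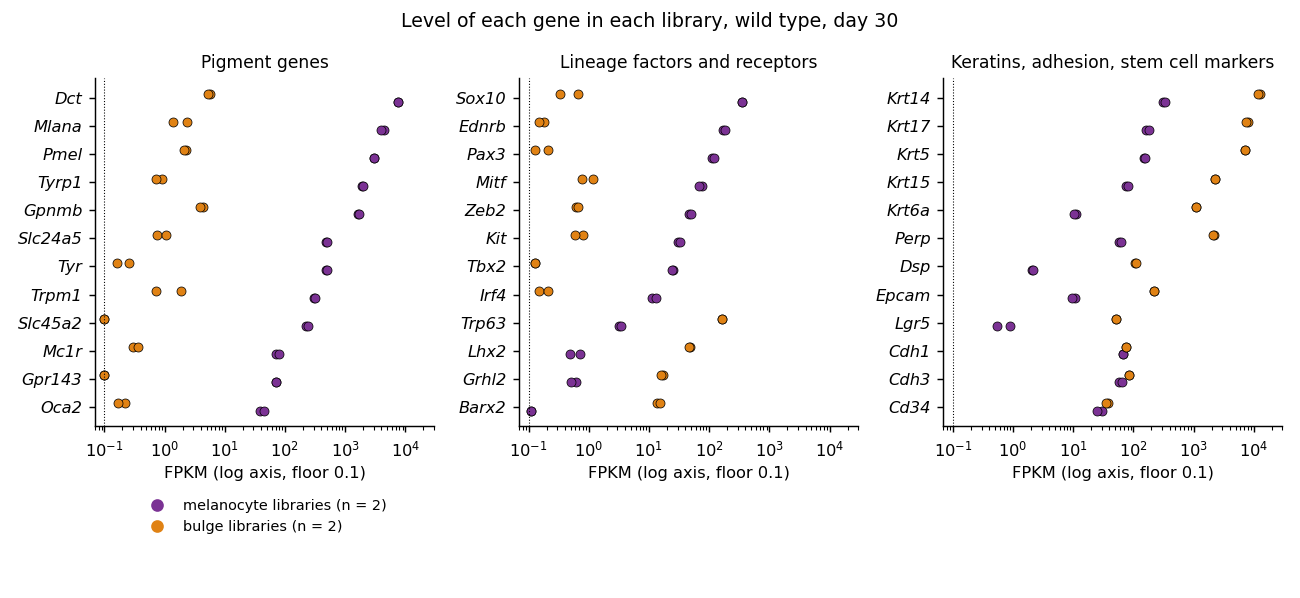
FPKM on a log axis (values under 0.1 drawn at 0.1, dotted line) of pigment genes, lineage factors and receptors, and keratins, adhesion genes and stem cell markers, with a point for each of the 2 melanocyte and 2 bulge libraries of day 30. The groups are wide apart for Tyr (479 and 509 FPKM against 0.26 and 0.16 FPKM) and Krt14 (314 and 330.5 FPKM against 12499 and 11712 FPKM) and nearly meet for Cdh1, Cdh3 and Cd34.

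Several transcription factors of the melanocyte lineage were also far apart between the cell types. Of 18 listed factors, 15 were compared, with 8 called higher in melanocytes and 1 in bulge cells. Sox10, which directs neural crest cells to the melanocyte and glial lineages, was at 346 and 355 FPKM in melanocytes and 0.67 and 0.33 FPKM in bulge cells, a difference of 9.64. Pax3, another neural crest factor, was at 111 and 119.8 FPKM against 0.21 and 0.13 FPKM, a difference of 9.54. Mitf, the master regulator of pigment genes, was at the lower level of 74.9 and 69.02 FPKM, against 1.18 and 0.76 FPKM, a difference of 6.35.

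Among the other called factors, Zeb2 was at 45.5 and 50.2 FPKM against 0.61 and 0.66 FPKM, Tbx2 at 25 and 24.1 FPKM against 0.13 FPKM in both and Irf4, which takes part in tyrosinase expression, at 11.3 and 13.3 FPKM against 0.15 and 0.21 FPKM. Sox6 and Ets1 were called with smaller differences of 3.94 and 4.02. Msx1, a homeobox gene, went the other way, at 1.3 and 0.64 FPKM in melanocytes and 21.3 and 18.5 FPKM in bulge cells. Tfap2a, a factor used in both epidermis and neural crest, was similar in both, at 12.9 and 13.9 FPKM against 17.2 and 15.2 FPKM.

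The melanocytes also held transcripts usually known from glia and nerve cells, which share a neural crest or neural origin with them. Of 14 Schwann and glial markers, 9 were compared and 5 were called higher in melanocytes, none in bulge cells. Fabp7, a fatty acid binding protein of glia, was at 110.0 and 107 FPKM against 0.27 and 0.1 FPKM. Sox2, a factor of neural and glial progenitors, was listed at 0 in both melanocyte libraries. The summed level of the glial list was 868 and 884 FPKM in melanocytes and 59.8 and 61.7 FPKM in bulge cells. In wild type dermal papilla libraries it was 393 and 479 FPKM at day 30 and 2432 and 1356 FPKM at day 56. Myeloid libraries of day 30 held 262 and 305 FPKM. Pmp22, at 386 and 405 FPKM in melanocytes, had its highest mean among the sorted wild type cell types in the dermal papilla. Whether other cells contributed to the melanocyte sum was not tested.

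Of 20 neuronal and synaptic vesicle genes, 12 were compared and 5 were called, all higher in melanocytes. Syt4, a synaptotagmin of secretory vesicles, was at 376 and 378 FPKM against 0.26 and 0.15 FPKM, among the widest gaps of the comparison. Ncam1, an adhesion molecule of nerve cells, was at 17.2 and 18.6 FPKM in melanocytes against 0.34 and 0.3 FPKM in bulge cells, and Tubb3, a neuronal tubulin, was at 18.98 and 20.8 FPKM against 0.65 and 0.63 FPKM. Adhesion genes typical of neural crest cells gave 5 calls among 16 compared, including Nrcam at 21.1 and 26.8 FPKM against 0.34 and 0.28 FPKM. Syt4 stood alone among these genes in its level, which was above that of Sox10 in every melanocyte library.

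Several abundant melanocyte transcripts lay outside the pigment and neural groups. Ptgds, prostaglandin D2 synthase, was at 5243 and 4599.7 FPKM in melanocytes and 3.19 and 2.41 FPKM in bulge cells, a difference of 10.89. Mcoln3, a cation channel of endosomes and lysosomes, was at 332.2 and 357 FPKM against 0.47 and 0.31 FPKM, and Emp3, a small membrane protein, was at 1139 and 1035 FPKM against 1.8 and 1.63 FPKM. C4b, a complement component, was at 245 and 259 FPKM against 0.29 and 0.31 FPKM. These genes were named because their ratios between the nearest libraries were among the 12 largest for genes measurable in both cell types. Their lack of overlap follows from that choice.

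Other abundant melanocyte transcripts, unlike Dct and Ptgds, were also high in bulge cells. Fth1, the heavy chain of the iron store ferritin, was at 12825 and 12289 FPKM in melanocytes and 1048 and 1071 FPKM in bulge cells, and Lgals3, galectin 3, was at 5901 and 5778 FPKM against 757 and 752 FPKM. Gstp1, a glutathione transferase, was at 5233 and 4823 FPKM against 291 and 307 FPKM. Hspa1a, an inducible heat shock protein, was at 4142 and 4566 FPKM against 232 and 201 FPKM, whereas its near copy Hspa1b was at 159 and 121 FPKM against 252 and 236 FPKM. How reads were shared between the copies is uncertain, so the values of this pair should be read together.

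Keratins led the bulge side. Krt14, the acidic keratin of basal cells and the source of the promoter behind the GFP gate (chr11:100203162-100207548, minus strand), was at 314 and 330.5 FPKM in melanocytes and 12499 and 11712 FPKM in bulge cells, a difference of -5.13. Krt5, its partner (chr15:101707070-101712898, minus strand), was at 151 and 153 FPKM against 7188 and 7131 FPKM, a difference of -5.46. Krt17, a keratin of the outer root sheath (chr11:100256217-100261029, minus strand), was at 165 and 179 FPKM against 8106 and 7380.3 FPKM. Krt15, a bulge marker, was at 75.5 and 82.5 FPKM against 2254 and 2248 FPKM.

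Of 10 basal and outer root sheath keratins, 9 were compared and 7 were called, all higher in bulge cells, with a median difference of -4.91. Krt6a, known from the inner bulge layer and companion cells, had the widest gap of the group at 11.3 and 10.4 FPKM against 1102 and 1082 FPKM, a difference of -6.55. The melanocyte libraries were not free of keratin transcripts: the list summed to 764 and 810.3 FPKM in melanocytes and 31494 and 29891 FPKM in bulge cells. Whether these reads came from keratinocytes in the sort was not tested. In the opposite direction, the list of melanin enzymes and matrix proteins summed to 14.7 and 14.6 FPKM in bulge cells and 18963 and 18796 FPKM in melanocytes.

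Keratins of simple and upper epidermal layers were lower in level but wider apart. Of 9 listed, 7 were compared and 6 were called higher in bulge cells. Krt1, a keratin of the spinous layer, was at 0.7 and 0.59 FPKM in melanocytes and 156 and 149.9 FPKM in bulge cells, a difference of -7.79. Its partner Krt10 was at 2.57 and 2.89 FPKM against 231 and 225 FPKM, a difference of -6.28. Krt8, Krt18 and Krt19, keratins of simple epithelia, stayed between 10.3 and 14.1 FPKM in bulge cells and at or under 0.66 FPKM in melanocytes. Of 17 compared genes of epidermal differentiation, 12 were called higher in bulge cells, among them Sbsn at 697 and 654 FPKM against 23.5 and 18.1 FPKM in melanocytes.

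Genes of the growing hair shaft and inner root sheath were shared between the cell types in part. Of 26 listed genes, 21 were compared and 7 were called, all higher in bulge cells, including the regulators Hoxc13, at 0.15 and 0.67 FPKM against 24.8 and 24.6 FPKM, and Gata3, at 4.06 and 3.6 FPKM against 98.8 and 104 FPKM. Krt71, an inner root sheath keratin, was not called at 36.7 and 39.4 FPKM in melanocytes and 306 and 294 FPKM in bulge cells. The shaft keratin Krt35 was at 18.7 and 17.6 FPKM in melanocytes and 14.4 and 12.7 FPKM in bulge cells, and its relative Krt33a was at 4.38 and 4.66 FPKM against 4.37 and 4.53 FPKM, so that these transcripts were listed in both kinds of library.

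Every compared factor of the epithelial list was higher in both bulge libraries, as were 42.8% of all compared genes. Of 23 listed, 21 were compared and 15 were called, with a median difference of -4.45. Trp63, the master regulator of stratified epithelium, was at 3.15 and 3.37 FPKM against 165 and 166 FPKM, a difference of -5.57. Lhx2, a homeobox factor of hair follicle stem cells, was at 0.72 and 0.48 FPKM against 47.8 and 45.4 FPKM, and Barx2, another homeobox gene, was at 0.11 FPKM in both against 13.5 and 15.2 FPKM. Klf4, a factor of barrier formation, was not called at 46.1 and 46.3 FPKM against 61.8 and 56.8 FPKM, nor was its relative Klf5 at 20.98 and 22.3 FPKM against 70.04 and 63.6 FPKM.

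Markers used for bulge stem cells did not divide the cell types uniformly. Of 30 listed, 28 were compared, with 9 called higher in bulge cells and 2 in melanocytes. Lgr5, a receptor for R-spondins, was at 0.55 and 0.89 FPKM in melanocytes and 52 and 51.5 FPKM in bulge cells, a difference of -6.11. Tbx1 was at 1.79 and 2.13 FPKM against 140.3 and 116 FPKM, and Vdr, the vitamin D receptor, was at 4.36 and 5.69 FPKM against 145 and 148 FPKM. Sox9, a factor of the outer root sheath, was not called at 20.9 and 25.4 FPKM against 152 and 141 FPKM.

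Cd34, whose protein was used to sort the bulge cells, hardly separated the groups, with 30.7 and 24.99 FPKM in melanocytes and 38.2 and 34.9 FPKM in bulge cells. At postnatal day 56 (P56), in the resting phase called telogen, the same gene was at 10.1 and 7.86 FPKM in melanocytes and 465 and 906 FPKM in bulge cells. Nfatc1, a factor that keeps bulge cells quiescent, was higher in melanocytes without being called, at 17.9 and 16.8 FPKM against 2.83 and 4.16 FPKM, and lay on the other side at day 56, at 11.9 and 12.4 FPKM against 55.02 and 81.9 FPKM. S100a4, a calcium-binding protein on the bulge list, was called higher in melanocytes at 2630.0 and 2071 FPKM against 48.3 and 43.05 FPKM, and at day 56 it was higher in both bulge libraries, at 740.2 and 666 FPKM against 3689 and 6246 FPKM. Dkk3, a secreted protein also on that list, was called higher in melanocytes at 309.6 and 338 FPKM against 20.03 and 17.3 FPKM, and was not called at day 56, at 147 and 136 FPKM against 146 and 274 FPKM.

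Desmosome genes were mostly bulge transcripts. Of 13 components, 12 were compared and 11 were called higher in bulge cells. Dsp, desmoplakin, was at 2.07 and 2.11 FPKM in melanocytes and 108 and 111 FPKM in bulge cells, and Perp, a desmosomal membrane protein, was at 58.2 and 63.2 FPKM against 2174 and 2088 FPKM. Dsg3, a desmosomal cadherin, was at 0.86 and 0.46 FPKM against 38.1 and 36.3 FPKM. Pkp2, a plakophilin, was the exception, not called at 7.77 and 7.32 FPKM in melanocytes and 2.12 and 1.94 FPKM in bulge cells.

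Classical cadherins did not follow the desmosomes. Cdh1, E-cadherin, was at 66.4 and 66.5 FPKM in melanocytes and 76.1 FPKM in both in bulge cells, a difference of -0.10. Cdh3, P-cadherin, whose low protein level was part of the bulge gate, was at 58.3 and 64.7 FPKM against 85.5 and 83.4 FPKM, a difference of -0.36. Of 22 compared genes for epithelial adherens and tight junctions, 16 were called higher in bulge cells, including Epcam at 10.9 and 9.63 FPKM against 220.4 and 219 FPKM, Cldn1 at 7.0 and 8.13 FPKM against 113 and 117 FPKM and the epithelial splicing regulator Esrp2 at 0.76 and 1.37 FPKM against 64.1 and 62.7 FPKM. Both cadherins were thus transcribed at comparable levels while most genes that seal epithelial contacts were at least 8-fold apart.

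Anchorage to the basement membrane lay between these patterns. Of 9 hemidesmosome and epithelial laminin genes, 3 were called higher in bulge cells: Col17a1, a transmembrane collagen, at 4.15 and 3.98 FPKM against 129 and 125 FPKM, Itgb4 at 2.44 and 2.64 FPKM against 41.9 and 40.4 FPKM, and Lamb3 at 1.91 and 1.6 FPKM against 43.4 and 40.4 FPKM. Plec, plectin, a linker of the cytoskeleton in many cells, was at 57.9 and 57.6 FPKM in melanocytes and 66.1 and 65.7 FPKM in bulge cells, and the tetraspanin Cd151 was at 72.7 and 69.7 FPKM against 83.6 and 86.9 FPKM, so that neither was called.

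**Figure D3:**
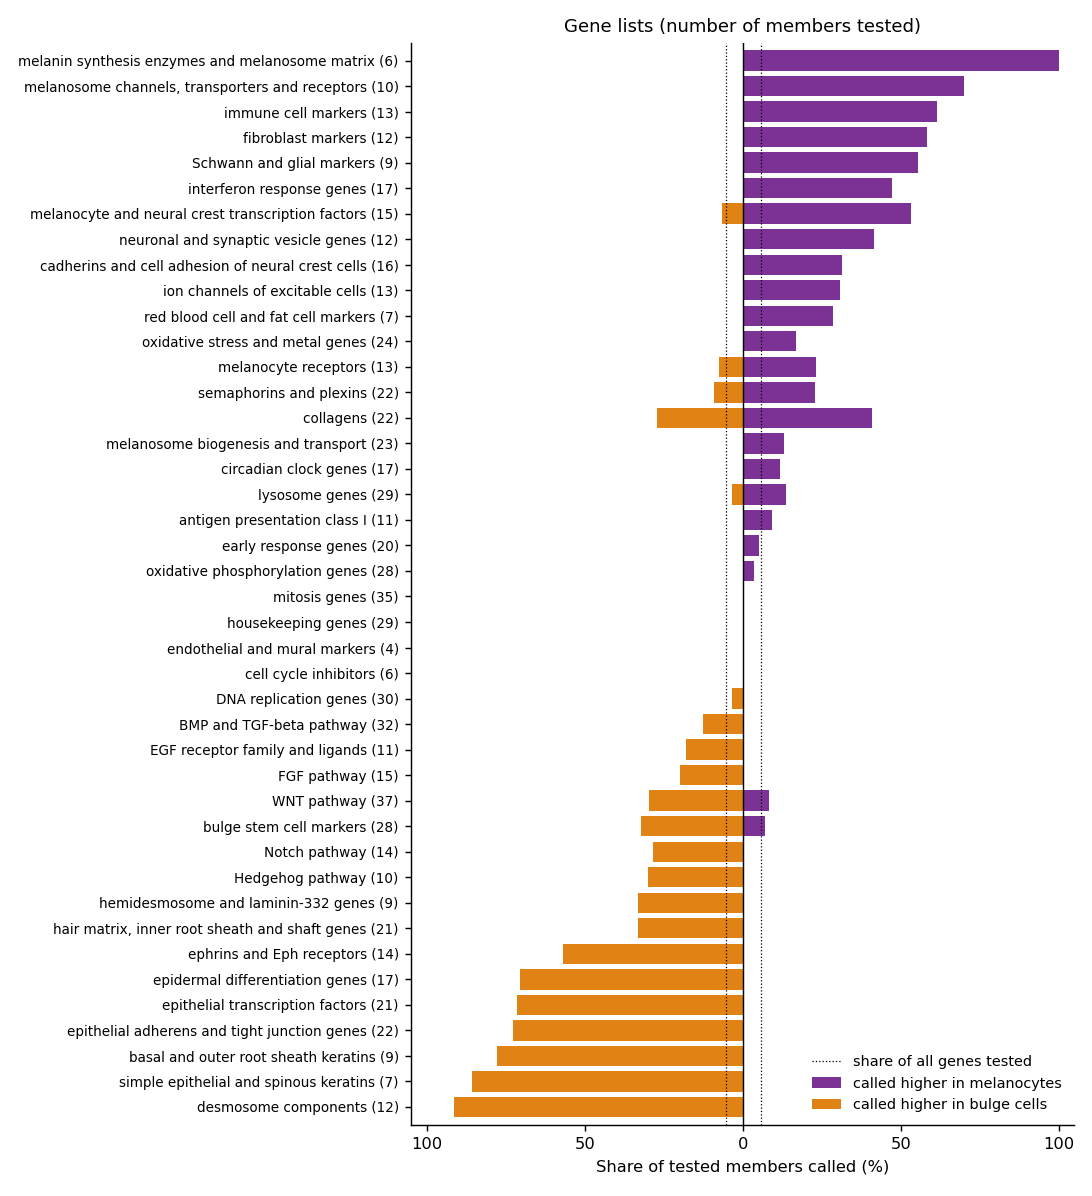
Share of the compared members of each gene list that was called higher in melanocytes (bars to the right) or in bulge cells (bars to the left), in percent, with the number of compared members in parentheses and dotted lines at the shares over all genes, 5.87% and 5.52%. Pigment lists fill the right end with 6 of 6 and 7 of 10 members, and desmosome components fill the left end with 11 of 12.

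Ligands and receptors were compared as 43 pairs, of which 22 had at least 1 called member. The pairs were not limited to signals known to pass between these cell types. Of 13 compared melanocyte receptors, Kit, Ednrb and Mc1r were called higher in melanocytes and Ret in bulge cells, beside 5.87% and 5.52% of all genes. The median difference of that list was -0.25. Of its members, 6 were higher in both melanocyte libraries and 7 in both bulge libraries, beside 42.0% and 42.8% of all genes. Kit, the stem cell factor receptor, was at 30.9 and 32.97 FPKM in melanocytes and 0.81 and 0.59 FPKM in bulge cells, while its ligand Kitl was in both, at 7.64 and 10.8 FPKM and 8.41 and 5.63 FPKM. Ednrb, the endothelin B receptor, was at 172 and 183 FPKM against 0.18 and 0.15 FPKM, a difference of 10.18. Edn2, a ligand of Ednrb, was at 0.73 and 1.51 FPKM in melanocytes and 21.9 and 22.2 FPKM in bulge cells, and the pair was the only combination of a ligand called in bulge cells with a receptor called in melanocytes. Edn1 was higher in the bulge libraries without being called, at 1.26 and 1.35 FPKM against 8.87 and 9.76 FPKM. At day 56 Edn2 lay on the other side without being called, at 16.1 and 15.1 FPKM in melanocytes and 10.3 and 4.16 FPKM in bulge cells.

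The reverse arrangement was met by Gdnf and its receptor component Ret alone. Gdnf was at 10.3 and 10.7 FPKM in melanocytes and 0.22 and 0.46 FPKM in bulge cells, and Ret was at 0.39 and 0.43 FPKM in melanocytes and 28.4 and 26.98 FPKM in bulge cells. Nrg1, a neuregulin, was a bulge transcript at 0.1 and 0.14 FPKM against 9.08 and 11.1 FPKM, while its receptor Erbb3 was in both, at 28.9 and 28.8 FPKM in melanocytes and 13.2 and 13.1 FPKM in bulge cells. Cxcl12, a chemokine, was at 10.8 and 9.49 FPKM against 182 and 173 FPKM. Mc1r, the melanocortin receptor that raises eumelanin synthesis, was at 71.8 and 80.2 FPKM against 0.3 and 0.36 FPKM. At day 56 neither Gdnf nor Ret was called. Gdnf was then at 9.14 and 9.27 FPKM in melanocytes and 1.36 and 0.7 FPKM in bulge cells. Ret was at 0.3 and 0.36 FPKM against 1.58 and 0.54 FPKM.

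Spp1, osteopontin, a secreted protein that the study followed in nevus skin, was at 61.4 and 62.96 FPKM in wild type melanocytes and was listed at 0.1 FPKM in both bulge libraries. Cd44, a receptor for it, was not called, at 249 and 263 FPKM in melanocytes and 69.3 and 65.6 FPKM in bulge cells, a difference of 2.02. Nras, the gene mutated in the nevus model, was at 57.9 and 57.3 FPKM against 54.8 and 55 FPKM. In these libraries the ligand was therefore on the melanocyte side and its receptor was transcribed in both cell types. By reporter staining, the study found Spp1 in normal skin mostly in dermal papilla fibroblasts, and it saw Spp1-positive melanocyte clusters in nevus mice only. The melanocyte libraries also held fibroblast and immune transcripts, given below. Whether other cells contributed the Spp1 reads was not tested.

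Of the signalling families, Eph receptors and ephrins, which guide contact between neighbouring cells, lay on the bulge side. All 14 that could be compared, of 19 listed, were higher in both bulge libraries, beside 42.8% of all genes, and 8 were called. Ephb3 was at 1.98 and 1.43 FPKM in melanocytes and 53.98 and 54.4 FPKM in bulge cells, and its possible ligand Efnb1 was at 9.26 and 10.1 FPKM against 92.8 and 81.9 FPKM without being called. Efna3 was at 0.67 and 2.16 FPKM against 61.4 and 58.3 FPKM. Semaphorins and plexins, another guidance family, went both ways with 5 called higher in melanocytes, such as the receptor Plxnc1 at 18.3 and 18.1 FPKM against 0.32 and 0.24 FPKM, and 2 higher in bulge cells, of 22 compared. The shares called over all genes were 5.87% and 5.52% in these directions.

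WNT genes were called on both sides. Of 43 listed, 37 were compared, with 11 called higher in bulge cells and 3 in melanocytes. The ligands Wnt3, Wnt5b, Wnt7b and Wnt10a and the receptors Fzd2, Fzd4, Fzd5 and Fzd10 were called higher in bulge cells, as was Sfrp1, a secreted inhibitor, at 2.92 and 2.16 FPKM against 98.5 and 93.8 FPKM. Wnt7b and Fzd4 formed the only listed pair with both members called in bulge cells. The genes called higher in melanocytes were Dkk3, Sfrp2 and Nkd1, with Sfrp2, a relative of Sfrp1, at 35.6 and 39.2 FPKM against 0.7 and 0.66 FPKM. Nkd1, an inhibitor induced by WNT signals, was at 11.7 and 11.6 FPKM against 0.42 and 0.34 FPKM, and Axin2, a common WNT target, was not called at 7.23 and 5.29 FPKM against 0.78 and 0.87 FPKM.

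In the FGF family, Fgf5, the signal that ends anagen, was at 0.29 and 0.17 FPKM in melanocytes and 68.1 and 57.5 FPKM in bulge cells, a difference of -8.04. The receptor Fgfr3 was at 1.27 and 1.71 FPKM against 110.2 and 124 FPKM and Fgfr2 was at 2.83 and 3.72 FPKM against 54.8 and 52.5 FPKM, while Fgfr1 was not called at 26.6 and 28.6 FPKM against 43.5 and 42.5 FPKM. Of 15 compared FGF genes, 3 were called higher in bulge cells. Counts in the same direction were 2 of 11 for the EGF receptor family, with Egfr at 3.3 and 2.02 FPKM against 55.7 and 50.05 FPKM, 4 of 14 for the Notch pathway, with Jag1 at 4.56 and 4.57 FPKM against 60.9 and 61.9 FPKM, 3 of 10 for the Hedgehog pathway and 4 of 32 for the BMP and TGF-beta pathway. No member of these lists was called higher in melanocytes. Over all compared genes, 5.52% were called higher in bulge cells and 5.87% in melanocytes.

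Cell cycle genes differed in the same direction without reaching the 8-fold rule. All 35 mitosis genes were higher in both bulge libraries, none was called, and their median difference was -1.76, where 42.8% of all compared genes were higher in both bulge libraries. Mki67, a proliferation marker, was at 0.93 and 1.33 FPKM in melanocytes and 11.5 and 10.4 FPKM in bulge cells, and Top2a, a topoisomerase of dividing cells, was at 8.46 and 7.95 FPKM against 32.6 and 31.1 FPKM. Of 30 DNA replication genes, 29 were higher in both bulge libraries and 1, Dtl, was called, where 5.52% of all compared genes were called in that direction. The 6 compared cell cycle inhibitors were higher in both melanocyte libraries, beside 42.0% of all genes, among them Cdkn1a, p21, at 719 and 649.5 FPKM against 336 and 304 FPKM, and none was called.

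Lysosome genes leaned to the melanocytes. Of 29, 27 were higher in both melanocyte libraries, beside 42.0% of all genes, with a median difference of 1.10. In melanocytes 4 were called and in bulge cells 1, beside 5.87% and 5.52% of all genes. Ctsk, cathepsin K, was at 82.4 and 95.9 FPKM in melanocytes and 0.81 and 0.84 FPKM in bulge cells, and Hexa, a hexosaminidase subunit, was at 184 and 192 FPKM against 22.1 and 23.4 FPKM. Acp5, an acid phosphatase, was the bulge call at 12 and 9.33 FPKM against 162 and 160.3 FPKM. Atp6v0d2, a proton pump subunit, was at 26 and 24.4 FPKM in melanocytes and listed at 0.1 FPKM in bulge cells.

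Interferon response genes gave 8 melanocyte calls among 17 compared and no bulge call. Ifit3 was at 39.3 and 42.05 FPKM in melanocytes and 0.17 and 0.1 FPKM in bulge cells, and Bst2, a membrane tether of viruses, was at 187 and 172 FPKM against 5.7 and 6.68 FPKM, while Irf7, an interferon regulatory factor, was not called at 19.4 and 18.9 FPKM against 22.2 and 17 FPKM. Of 24 genes for oxidative stress and metals, 4 were called, all higher in melanocytes, beside 5.87% of all genes. They included Gpx3, a secreted glutathione peroxidase, at 135 and 138 FPKM against 1.57 and 1.71 FPKM, and Hmox1, heme oxygenase, at 115 and 130.3 FPKM against 11.1 and 12.6 FPKM. The clock outputs Dbp, at 61.8 and 68.7 FPKM against 1.52 and 2.17 FPKM, and Nr1d1, at 96.5 and 99.01 FPKM against 6.97 and 6.56 FPKM, were called higher in melanocytes, and the time of day of each sort was not stated.

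Oxidative phosphorylation and housekeeping genes differed little in their medians, though not in every member. Of 28 oxidative phosphorylation genes, the single call was Ppargc1a, a regulator of mitochondrial genes, at 18.2 and 21.4 FPKM in melanocytes and 1.29 and 0.99 FPKM in bulge cells, and the median difference of the list was 0.12. None of 29 housekeeping genes was called, with a median of 0.21. Over all compared genes, 5.87% were called higher in melanocytes and 5.52% in bulge cells. Of the housekeeping genes, 17 were higher in both melanocyte libraries and 11 in both bulge libraries, beside 42.0% and 42.8% of all genes. B2m, of that list, was at 7363 and 6772 FPKM in melanocytes and 962 and 964 FPKM in bulge cells. Ucp2, a mitochondrial carrier, was the fourth-ranked bulge call by level, at 286 and 301 FPKM against 6545 and 6162 FPKM. Apoe, the highest transcript in bulge cells, was not called at 2894 and 2849 FPKM against 26048 and 23079 FPKM.

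Collagens were called on both sides, with 9 of 22 compared called higher in melanocytes and 6 in bulge cells. Col1a1, a fibrillar collagen of dermis, was at 328 and 352 FPKM in melanocytes and 7.79 and 6.88 FPKM in bulge cells, and Col3a1 was at 314 and 309 FPKM against 6.16 and 6.89 FPKM. Basement membrane and epithelial collagens were on the bulge side, with Col18a1 at 14.2 and 12.9 FPKM against 140.1 and 127 FPKM and Col4a5 at 0.14 and 0.25 FPKM against 10.2 and 9.26 FPKM. Because fibrillar collagens are typical of fibroblasts, markers of other cells that a skin sort could hold are given next.

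Of 12 fibroblast markers, 7 were called higher in melanocytes, and their summed level was 1379 and 1395 FPKM in melanocytes, 225 and 216 FPKM in bulge cells and 3192 and 2394 FPKM in wild type dermal papilla libraries of the same age. Lum, 1 of the called members, was at 72.05 and 70.4 FPKM in melanocytes and 0.7 and 0.52 FPKM in bulge cells. Pdgfra, which defines dermal fibroblasts, was not called at 1.94 and 1.99 FPKM in melanocytes and 0.13 and 0.48 FPKM in bulge cells. Of 20 immune markers, 13 were compared and 8 were called higher in melanocytes, with a summed level of 874 and 827 FPKM, against 63.4 and 69.3 FPKM in bulge cells and 71392 and 79679 FPKM in wild type myeloid libraries. Ptprc, which encodes CD45, was at 1.15 and 0.59 FPKM in melanocytes while Lyz2, lysozyme, was at 179 and 184 FPKM against 0.97 and 1.01 FPKM in bulge cells. At day 56 the fibroblast sum lay on the other side, at 209 and 199 FPKM in melanocytes and 760 and 1012 FPKM in bulge cells. The immune sum was then 2864 and 2589 FPKM in melanocytes and 742 and 120 FPKM in bulge cells. The part of fibroblasts and immune cells in the melanocyte calls was not tested.

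Of the remaining marker lists, none of the 4 compared endothelial and mural markers was called, Pecam1 was at 0.94 and 0.42 FPKM in melanocytes, and Acta2, smooth muscle actin, was at 19.2 and 21.5 FPKM against 142 and 145 FPKM. Among 7 compared markers of red blood cells and fat cells, the globin genes Hba-a2 and Hbb-bt were called higher in melanocytes. Hba-a2 was at 35.3 and 27.2 FPKM in melanocytes and 2.95 and 0.1 FPKM in bulge cells, which puts the bulge libraries far apart.

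To see which calls also set the cell types apart from the other sorted populations, the 22 wild type libraries of 6 sorted cell types (these 2, dermal papilla, hair germ, myeloid and CD45+ immune cells) were rescaled together. These libraries were of day 30 and day 56, with hair germ at day 56 only. Each cell type was ranked by its highest group mean at either age. Of the genes called higher in melanocytes, 639 were listed for all 6 cell types, and 230 of them, 36.0%, had their highest group mean in melanocytes. The highest mean was in the dermal papilla for 175 genes, in myeloid cells for 165 genes and in CD45+ cells for 62 genes. Col1a1 and Col3a1 had their highest means in the dermal papilla, and Fth1, Lgals3 and S100a4 in myeloid cells. Both day 30 melanocyte libraries lay above every library of the other cell types for 181 genes, 28.3%, against 4.59% of all genes listed throughout. The call had already placed these genes above the day 30 bulge libraries, so part of that excess follows from the call.

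Among the 41 melanocyte calls that were at least 8-fold above every library of the other 5 cell types, the widest gaps belonged to Syt4, Dct, Tyr, Mlana and Ptgds, with log2 gaps of 8.96, 8.93, 8.31, 7.55 and 7.55. On the bulge side 563 called genes were listed for all 6 cell types, and 388 of them, 68.9%, had their highest mean in bulge cells, with 60 highest in the hair germ and 56 in the dermal papilla. Both day 30 bulge libraries were above every library of the other cell types for 293 genes, 52.0%, against 9.81% of all genes. Here too the call had already placed the genes above the day 30 melanocyte libraries, which fixes part of the excess. Krt6a, at a log2 gap of 6.52, and Rnase12, at 6.18, were the most distinct, and 21 bulge genes kept an 8-fold gap.

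**Figure D4:**
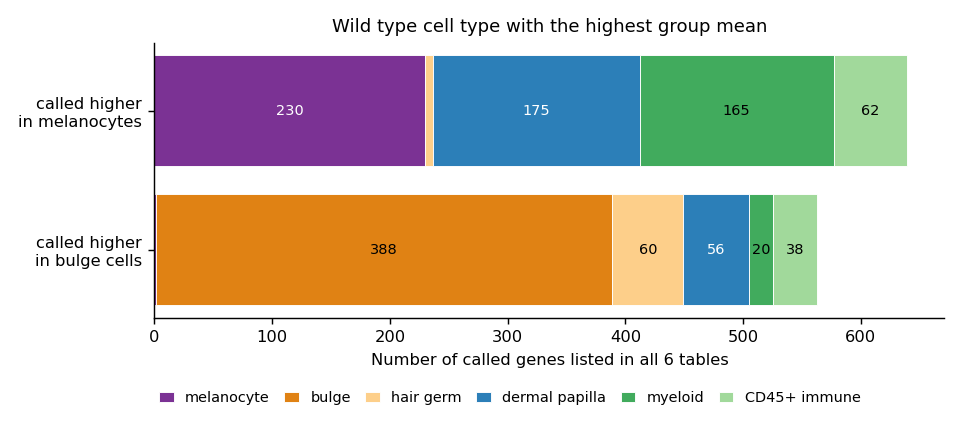
Number of genes called higher in melanocytes (639) and in bulge cells (563) and listed in all 6 tables, divided by the wild type cell type in which the group mean of rescaled FPKM, at day 30 or day 56, is highest. Melanocytes hold the highest mean for 230 of the melanocyte calls, and bulge cells hold it for 388 of the bulge calls.

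The same measure was taken in wild type libraries of day 56, which the calls did not use and in which the follicles rest. By the same rule 556 genes, 4.50%, were called higher in melanocytes and 304 genes, 2.46%, in bulge cells at that age. Of the 725 melanocyte calls of day 30, 358, or 49.4%, were called again at day 56 and 638 were on the same side without overlap of the libraries. Of the 682 bulge calls, 150, or 22%, were called again and 556 were on the same side without overlap. Over all compared genes, 42.8% were higher in both melanocyte libraries and 41.9% in both bulge libraries at that age. On the opposite side without overlap were 30 of the melanocyte genes and 54 of the bulge genes, and opposite calls at day 56 were made for 4 of the melanocyte genes and 2 of the bulge genes.

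Pigment genes held wide gaps at both ages. Dct was at 4523 and 4526 FPKM in day 56 melanocytes and 13.2 and 12.3 FPKM in day 56 bulge cells, a difference of 8.62, and Tyr was at 41.7 and 40.01 FPKM against 0.43 and 0.21 FPKM, a difference of 7.24. Mitf was at 114 and 113 FPKM against 21.7 and 33.6 FPKM, a difference of 2.23. Several basal keratins were closer together than at day 30, with Krt14 at 2142 and 1943 FPKM in melanocytes and 10135 and 4708 FPKM in bulge cells, a difference of -1.61, and Krt17 at a difference of -0.50. Krt5, Krt6a and Krt80 were called higher in bulge cells at day 56 as well, Krt5 at a difference of -3.56 and Krt6a at -5.53. The summed basal keratin level of day 56 melanocytes was 5209 and 4804 FPKM, and its source was not tested.

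Ucp2 was nearly level at day 56, at 534 and 517 FPKM in melanocytes and 754 and 279 FPKM in bulge cells. The day 56 bulge libraries differed from each other in differentiation genes, for example Krt1 at 230.2 and 23.8 FPKM, which widens the spread that a call must clear. They also stood apart in sex-linked transcripts. Ddx3y, on the Y chromosome, was at 0.1 FPKM in both in day 56 bulge cells and at 8.66 and 8.12 FPKM in day 56 melanocytes, whereas at day 30 it was at 22 and 26.6 FPKM in melanocytes and 18.5 and 17.1 FPKM in bulge cells. Xist, transcribed from an inactive X chromosome, was at 30.2 and 24.9 FPKM in day 56 bulge cells and 0.1 and 0.12 FPKM in day 30 bulge cells. These transcripts moved with cell type at day 56 and not at day 30, and their part in the day 56 calls was not tested.

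**Figure D5:**
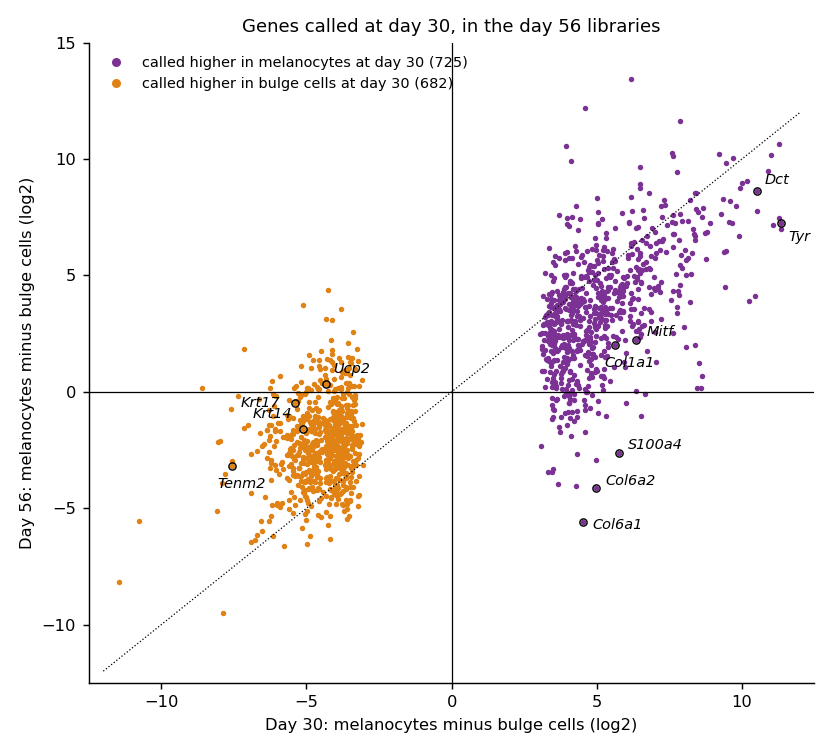
Log2 difference (melanocytes minus bulge cells) of the genes called at day 30, at day 30 on the x axis and at day 56 on the y axis, with 2 libraries per group at each age and a dotted line of equal differences. Most genes keep their side (638 of 725 and 556 of 682 without overlap), while Ucp2 lies near 0 and Col6a1 and Col6a2 lie on the opposite side at day 56.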

How the data were processed

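RNA of sorted cells was sequenced in bulk by the authors as full-length Smart-seq2 libraries, mapped to mouse assembly GRCm38 (mm10) with STAR 2.4.2 per the submitters' processing notes, and summarised per gene by RSEM. The deposited values are FPKM computed by the authors, with 1 table for each of 6 cell types. The bulge table lists no value under 0.1 and the other tables list values at 0, and how the tables were scaled to each other was not stated. The tables hold no read counts, so depth is unknown, no interval from counts can be given and the study's count-based test could not be applied. The number of libraries, 2 per group, limits the precision, and replicate libraries differed by a 95th-percentile ratio of 1.98 in melanocytes and 1.64 in bulge cells.

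Here the melanocyte and bulge tables were joined on Ensembl identifiers, 24 and 23 gene symbols that had been altered to dates were restored, values under 0.1 were set to 0.1, and libraries were rescaled by median ratios over 10081 genes at 1 FPKM or more in all 4 libraries. Calls, levels and log2 differences are as defined in the report, computed with Python 3.11.15, pandas 2.3.3 and NumPy 2.4.6, with figures by matplotlib 3.10.9. The script was tested on simulated data with known folds. Gene positions are from a GENCODE annotation of GRCm38 that matched 12335 of the 12355 genes, and promoters are from RefSeq on GRCm38.p6, leaving out chromosome 18.

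The members, the 42 gene lists and the 43 ligand and receptor pairs were chosen with earlier results of these data known. Genes are named by a rule: in each direction the 12 calls with the largest ratio between nearest libraries among those with a mean of at least 20 FPKM and a measurable lower group, the 6 highest calls whose lower group was at 0.1 FPKM or under, up to 4 called members of each list with the largest difference (or, with no call, its 2 most abundant), members of pairs with a called gene, the 10 highest genes of each cell type, and a set of lineage, stem cell and signalling genes. A few named genes are not reported here. Other list members in the text were picked after their values were seen. Where both libraries of the lower group were at 0.1 FPKM or under, levels are given without a fold. No set test and no test between tables was made. Alternatives changed the rescaling, the floor, the filter, the fold, the gene classes and the libraries.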

Additional observations from a re-analysis of the deposited data

Results flagged for a closer look

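Among the genes called at day 30, 6 were called in the opposite direction at day 56, 4 of 725 melanocyte calls and 2 of 682 bulge calls. Over all compared genes, 2.46% were called higher in bulge cells and 4.50% in melanocytes at day 56. Libraries of a called gene cannot overlap between the cell types, so their separation at both ages follows from the rule. These opposite directions were not tested, and at day 56 the bulge libraries also stood apart in sex-linked transcripts. Col6a1, a collagen VI chain, was at 42.9 and 43.1 FPKM in melanocytes and 1.9 and 2.1 FPKM in bulge cells at day 30 (log2 difference 4.53), and at 2.25 and 1.96 FPKM against 96.3 and 129 FPKM at day 56 (-5.58). Col6a2, its partner chain, was at 48.3 and 50.8 FPKM against 1.81 and 1.58 FPKM at day 30 (4.97) and at 2.51 and 2.15 FPKM against 41.3 and 49.97 FPKM at day 56 (-4.14). The third chain, Col6a3, did not switch, at 4.61 and 7.52 FPKM against 0.19 and 0.3 FPKM at day 30 and 9.25 and 8.06 FPKM against 0.53 and 0.1 FPKM at day 56, and was called higher in melanocytes at both ages.

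Tnfrsf11b, osteoprotegerin, a decoy receptor for a cytokine of bone cells, was at 11.3 and 12.01 FPKM in melanocytes and 0.76 and 1.27 FPKM in bulge cells at day 30 (3.67), and at 1.79 and 1.17 FPKM against 19.3 and 32.1 FPKM at day 56 (-3.95). Adamts7, a secreted metalloproteinase, was low throughout, at 1.62 and 1.77 FPKM against 0.18 FPKM in both at day 30 (3.33) and at 0 and 0.06 FPKM against 1.14 and 1.25 FPKM at day 56 (-3.43).

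The 2 genes with the reverse pattern were also low. Krtap15, a keratin-associated protein of the hair shaft, was at 0.2 and 0.4 FPKM in melanocytes and 6.21 and 5.54 FPKM in bulge cells at day 30 (-4.27), and at 1.93 and 1.76 FPKM against 0.1 FPKM in both at day 56. Gm43816, a predicted gene, was listed at 0 FPKM in both melanocyte libraries and at 3.17 and 4.33 FPKM in bulge cells at day 30, and at 1.36 and 1.02 FPKM against 0.1 FPKM in both at day 56. With the lower group at the 0.1 FPKM floor, the log2 values of 4.36 for Krtap15 at day 56 and of -5.11 and 3.71 for Gm43816 at days 30 and 56 depend on that floor and are not folds.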

How the results depend on the processing

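The counts of 725 melanocyte and 682 bulge calls stayed within 1.5 times when libraries were not rescaled, when all compared genes set the rescaling, with a filter of 5 FPKM or none, with group means in place of nearest libraries and with lncRNAs added. They moved further in 3 settings. A floor of 1 FPKM left 447 and 417 calls, a fold of 4 gave 1129 and 1157, and a fold of 16 gave 440 and 315. Leaving out a library gave 777 to 801 melanocyte calls and 711 to 836 bulge calls, since fewer libraries then had to clear the fold. Of the 156 named genes that were called, all were called without each library in turn, 154 without rescaling (Lgals3 and Npr2 were lost) and 141 with the floor of 1 FPKM, and none changed direction. Without rescaling, the median over all genes moved by -0.10 on the log2 scale. The number of members of a list called in a direction stayed within 1.5 times its value, though not always equal to it, in 562 of 588 comparisons with an alternative. Melanocyte calls made up 48.2% to 58.3% of all calls over the settings. No paired analysis was possible because the result comes from no test and the replicate numbers of separately sorted cell types only name the libraries. With 2 libraries per group and depth unknown, levels near 0.1 FPKM cannot be told from 0.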

Other observations

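Genes listed for 1 of the cell types alone could not enter the comparison. The melanocyte table held 1739 protein-coding genes that the bulge table did not, and 68 of these were at 1 FPKM or more in both day 30 melanocyte libraries. The highest was Alppl2, an alkaline phosphatase, at 960.4 and 1010.4 FPKM. Foxd3, a neural crest transcription factor, was at 29.3 and 26.8 FPKM, Cdh19, a cadherin of Schwann cell precursors, was at 12.8 and 13.9 FPKM, and Cdh2, N-cadherin, was at 8.56 and 11.96 FPKM.

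In the opposite direction, 567 protein-coding genes were in the bulge table alone, and 9 of them were at 1 FPKM or more in both day 30 bulge libraries. Dhrs9, a dehydrogenase of retinoid and steroid metabolism, was at 16.3 and 17.1 FPKM, and Krt6b, a keratin close in sequence to Krt6a, was at 6.76 and 5.54 FPKM. Why a gene is in only 1 table was not stated, so no level is assigned to it in the other cell type.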
